A study of Homo sapiens with 12 samples.

Results

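The genes described here are 9 targets of the transcription factor p53: MDM2, TP53INP1, SESN1, GADD45A, GADD45B, ZMAT3, RRM2B, FDXR and XPC. They were chosen by name, as the rows of the deposited count table that carry these symbols, and all 9 were found among the 59050 names of the table and among the 16208 genes with enough reads to be tested. The rule itself used no measured value, but the genes were chosen with earlier results of these data known. The cells were MYLA, an established line of cutaneous T cell lymphoma (CTCL), kept in medium with 20 ng/mL human interleukin-2. They received DMSO, the solvent, or 3.2 nM romidepsin, an inhibitor of histone deacetylases, or 5.7 uM afatinib dimaleate, an inhibitor of the ERBB family of receptor tyrosine kinases, or both drugs together. RNA was taken after 24 h, every condition held the DMSO volume of the combination, and each of the 4 groups had 3 libraries of bulk RNA-seq. The series was designed to study how the 2 drugs act together in CTCL.

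p53 is a transcription factor that is kept scarce by the ubiquitin ligase MDM2 and accumulates after DNA damage and other stresses. It binds DNA at pairs of short sequences and raises the transcription of genes for cell cycle arrest, DNA repair, antioxidant defence and cell death, and of MDM2 itself, which closes a feedback loop. Many of these genes are also controlled by other stress pathways, so their RNA level alone is not a measure of p53 activity. No p53 protein was measured.

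The libraries held 8972228 to 12696653 read pairs counted in genes, and 3 counts in a library corresponded to 0.229 to 0.344 CPM, the counts scaled to the same library total. Mitochondrial genes took 10.7% to 14.8% of the counts. Of 13 T cell markers, 8 were tested, whereas CD3E reached at most 4 counts in any library, CD4 and LCK at most 1, CD7 at most 2 and CD5 at most 5. The summed level of the T cell markers was 1965 to 2036 CPM with DMSO, 1477 to 1524 CPM with afatinib, 665 to 696 CPM with romidepsin and 440 to 468 CPM with the combination. IL2RA made up most of this sum, with group means of 1225, 835, 423 and 243 CPM in this order. Among the tested T cell markers only the mean of CD8A rose with afatinib, from 9.33 to 15.6 CPM. The 5 fibroblast markers went from 173 to 199 CPM with DMSO to 97.5 to 101 CPM with afatinib, 26.0 to 32.5 CPM with romidepsin and 14.7 to 17.2 CPM with the combination. This sum was almost all COL1A1 (group means 119, 54.3, 14.7 and 8.68 CPM) and COL3A1 (63.1, 45.0, 13.5 and 7.02 CPM). DCN and LUM had 0 counts in every library. COL1A2 stood at 0.494 CPM with DMSO, 0.126 with afatinib, 1.19 with romidepsin and 0.375 with the combination. The 10 keratinocyte markers lay at 201 to 257, 193 to 225, 139 to 148 and 128 to 148 CPM in the same order. Most of this sum was SFN and KRT10, which moved differently. In that order the group means were 177, 126, 96.0 and 60.4 CPM for SFN. For KRT10 they were 41.6, 75.7, 45.0 and 74.3 CPM. The 6 myeloid markers lay between 21.4 and 43.6 CPM in all libraries and the 4 B cell markers between 1.61 and 5.76 CPM. Within the myeloid sum, romidepsin took the mean of ITGAM from 25.2 to 8.42 CPM and that of CSF1R from 6.97 to 32.6 CPM. The part of these shifts in the results below was not tested. KRT5, a keratin of keratinocytes, had 43 to 126 counts in 4 libraries (DMSO replicates 1 and 2, afatinib replicate 3, combination replicate 1) and at most 1 in the other 8. Values without these 4 libraries are given where they change a call that is stated for a gene by name. Whether the 3 libraries of a group stem from different cultures is not said in the labels, and the p-values therefore rest on the spread among these libraries, which may be technical. In bulk RNA, fewer cells with a transcript and less transcript per cell cannot be told apart.

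RefSeq start windows (build GRCh38.p14, 250 bases before to 50 bases after a start) were at hand for 6 of the 9 genes, 13 windows in all. The sequences below are shown because p53 acts through DNA next to its targets, so the letters give the place where such a site would lie. In the MDM2, SESN1 and FDXR sequences the capitals mark the best pair of p53 half-sites, each of 10 bases, under the search rule given below. Pairs that lack a core letter were not sought, so other candidate sites may lie in the same stretch. In GADD45B they mark TATAAA, the box read by the basal transcription machinery.

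MDM2, chr12:68808897-68809016, plus strand, the 120 bases before the start inside the gene: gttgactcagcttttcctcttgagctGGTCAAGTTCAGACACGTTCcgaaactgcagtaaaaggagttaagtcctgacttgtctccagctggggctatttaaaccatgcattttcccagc
SESN1, chr6:109008989-109009108, minus strand, the 120 bases before the third start: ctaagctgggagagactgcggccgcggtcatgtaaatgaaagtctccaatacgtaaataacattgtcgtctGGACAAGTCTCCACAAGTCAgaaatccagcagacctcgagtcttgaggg
FDXR, chr17:74872996-74873015, minus strand, the 20 bases of the pair, within an exon of the counted gene model: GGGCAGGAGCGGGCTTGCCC
GADD45B, chr19:2476007-2476126, plus strand, the 120 bases before the start: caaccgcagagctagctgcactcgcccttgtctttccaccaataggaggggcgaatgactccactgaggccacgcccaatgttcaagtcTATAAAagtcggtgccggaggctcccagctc

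The pair in MDM2 begins 94 bases before the start and has 2 mismatches to the p53 consensus over both half-sites. The pairs in SESN1 and FDXR begin 49 and 21 bases before their starts, with 3 mismatches each. A pair with at most 3 mismatches, the C and G of each core kept and at most 3 bases between the half-sites was found in 4 of the 13 windows, which belong to 3 genes (a second MDM2 window overlaps the one shown), and in 4.75% of all 35116 RefSeq windows of this length. The consensus reads the same on both strands. An exact half-site stood in 2 of the 13 windows, in SESN1 and FDXR, against 6.63% of all windows. None of the 13 windows, which cover 6 of the 9 genes, held 2 exact half-sites within 13 bases of each other, and 10 of all 35116 windows did. TATAAA, on either strand, stood in 1 of the 13 windows and in 11.5% of all. These search rules, and TATAAA among several motifs, were chosen after looking at the windows, the shares are descriptions, and a match is not a shown site of binding.

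Romidepsin raised 6 of the 9 genes, lowered MDM2 and FDXR, and left XPC uncalled (edgeR, adjusted p below 0.05), where 31.1% of all tested genes were called higher, 31.5% lower and 62.6% in either direction. Afatinib raised TP53INP1, GADD45A and RRM2B, lowered ZMAT3 and FDXR, and left 4 uncalled, where 22.0% of all genes were called higher, 23.3% lower and 45.4% in either direction. The combination raised 5, lowered MDM2 and FDXR and left ZMAT3 and XPC uncalled, where 37.2% of all genes were called higher, 37.1% lower and 74.3% in either direction. The median log2 fold change of the 9 genes was 0.29 with romidepsin, 0.03 with afatinib and 0.58 with the combination, and that of all tested genes was -0.0025, 0.0016 and -0.0050. The 3 comparisons share the DMSO libraries. The share of the genes called in either direction was thus 8 of 9, 5 of 9 and 7 of 9 in conditions that moved 45.4% to 74.3% of all genes, and the genes differed from each other in size and direction.

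**Figure D1:**
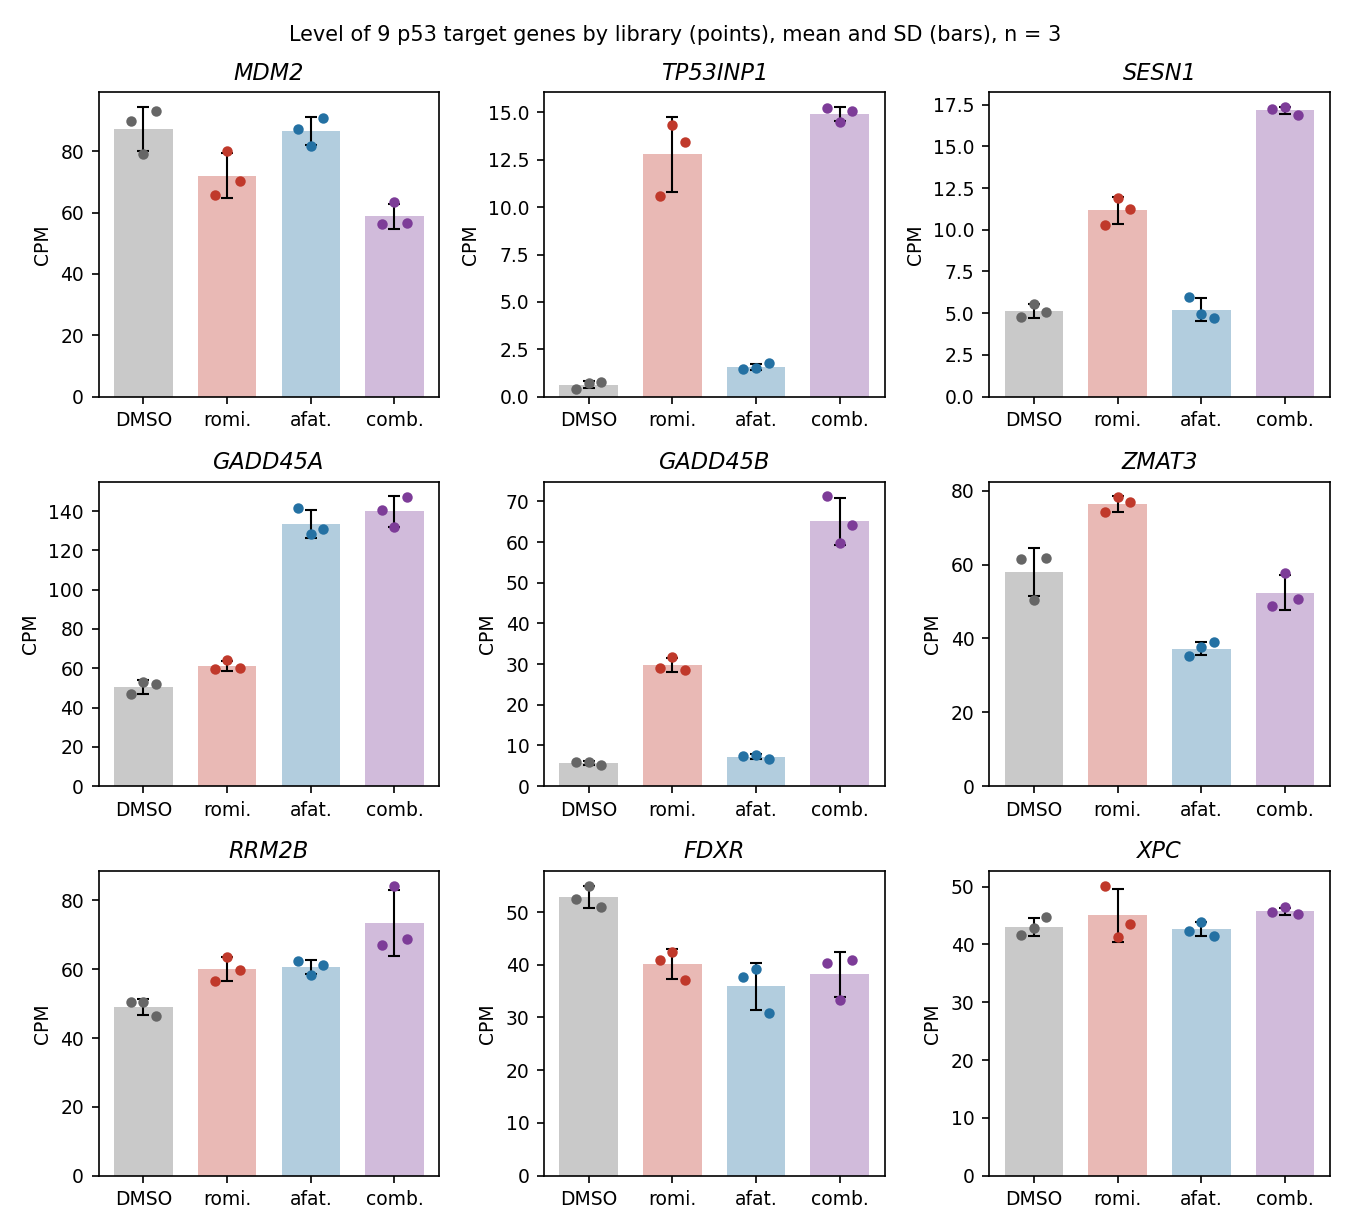
Level of each of the 9 p53 target genes in CPM (vertical axes, linear, from 0) in the 4 groups; points are libraries, bars the mean and error bars the SD of 3 libraries. TP53INP1, SESN1 and GADD45B are high in both groups that received romidepsin, GADD45A in both groups that received afatinib, and XPC lies between 41.2 and 50.2 CPM in all 12 libraries.

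MDM2 (chr12:68808177-68850686, plus strand), the ligase that marks p53 for destruction, was lowered by romidepsin and more so by the combination. Its level was 89.8, 79.2 and 93.0 CPM in the 3 DMSO libraries, 65.7, 80.1 and 70.2 with romidepsin, 87.2, 81.8 and 90.7 with afatinib, and 56.3, 63.6 and 56.5 with the combination. All combination libraries lay below all others, while romidepsin replicate 2 lay above the lowest DMSO library. The log2 fold change from DMSO was -0.29 ± 0.076 (SE, adjusted p = 0.00109) with romidepsin, -0.01 (adjusted p = 0.904, 95% interval -0.16 to 0.14) with afatinib and -0.57 ± 0.077 (adjusted p = 4.86e-09) with the combination. The combination was also lower than romidepsin, by a log2 fold change of -0.29 ± 0.078 (adjusted p = 0.00168). Exons of MDM2 overlap those of CPM, a gene on the opposite strand, over 133 bases, and as the counting used no strand their reads there cannot be told apart; CPM had 648 counts over the 12 libraries and MDM2 had 10384.

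GADD45A and GADD45B encode small stress proteins that bind growth-regulating kinases and the replication clamp PCNA. Of the single drugs, afatinib raised GADD45A more and romidepsin raised GADD45B more. GADD45A (chr1:67685201-67688334, plus strand) had 46.7, 53.2 and 51.9 CPM with DMSO, 59.5, 64.2 and 60.4 with romidepsin, 142, 128 and 131 with afatinib and 141, 132 and 147 with the combination. Its afatinib and combination libraries overlapped and all lay far above the DMSO mean of 50.6 ± 3.46 CPM (SD, n = 3). The log2 fold change was 0.28 ± 0.074 with romidepsin (adjusted p = 0.00107), 1.40 ± 0.070 with afatinib (adjusted p = 4.95e-22) and 1.47 ± 0.070 with the combination (adjusted p = 3.42e-24). The combination and afatinib did not differ past the threshold (log2 difference 0.07, 95% interval -0.06 to 0.20, adjusted p = 0.37).

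GADD45B (chr19:2476122-2478259, plus strand), whose TATAAA-bearing start is printed above, rose with romidepsin and further with the combination. It had 5.84, 6.06 and 5.17 CPM with DMSO, 29.0, 31.7 and 28.5 with romidepsin, 7.46, 7.67 and 6.58 with afatinib and 71.3, 59.7 and 64.2 with the combination. No 2 groups overlapped. It rose 5.21-fold with romidepsin (log2 2.38 ± 0.13, adjusted p = 3.99e-22) and 11.4-fold with the combination (log2 3.52 ± 0.12, adjusted p = 1.6e-30), which stood 2.19-fold above romidepsin (adjusted p = 9.48e-15). The afatinib value was not called (log2 0.35 ± 0.15, adjusted p = 0.0625), and it passed the threshold without afatinib replicate 3 (adjusted p = 0.0446) and with scaling by library size alone (adjusted p = 0.0155).

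TP53INP1 and SESN1 encode proteins of autophagy and nutrient control, a nuclear protein that binds p53 and autophagy factors and a sestrin that restrains the growth kinase complex mTORC1. TP53INP1, on chromosome 8, had 0.417, 0.707 and 0.788 CPM with DMSO, which is 5 to 9 counts per library, and 1.47, 1.51 and 1.77 CPM with afatinib. It reached 10.6, 14.3 and 13.5 CPM with romidepsin and 15.2, 14.5 and 15 CPM with the combination. The 4 groups did not overlap, and TP53INP1 had the lowest DMSO level per kilobase of the 9 genes (0.113 ± 0.035 CPM per kilobase, against 26.3 ± 1.80 for GADD45A, the highest). It rose 19.8-fold with romidepsin (log2 4.31 ± 0.25, adjusted p = 1.5e-20), 2.50-fold with afatinib (log2 1.32 ± 0.36, adjusted p = 0.00218) and 23.3-fold with the combination (log2 4.54 ± 0.24, adjusted p = 2.9e-22). The combination and romidepsin did not differ past the threshold (log2 difference 0.23, 95% interval -0.07 to 0.53, adjusted p = 0.189). Without the 4 libraries with KRT5 reads the afatinib call was lost (log2 0.95, adjusted p = 0.212); that leaves DMSO with 1 library.

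SESN1 (chr6:108986437-109094819, minus strand) had 4.75, 5.55 and 5.08 CPM with DMSO, 10.3, 11.9 and 11.3 with romidepsin, 5.99, 4.92 and 4.74 with afatinib and 17.2, 17.3 and 16.9 with the combination. The DMSO and afatinib libraries overlapped, and the romidepsin and combination libraries stood apart from them and from each other. SESN1 rose 2.17-fold with romidepsin (log2 1.12 ± 0.16, adjusted p = 4.33e-08) and 3.35-fold with the combination (log2 1.74 ± 0.15, adjusted p = 1.86e-14). The combination was 1.54-fold above romidepsin (adjusted p = 0.000136), and the afatinib value was not called (log2 0.03, 95% interval -0.34 to 0.39, adjusted p = 0.925). The pair of half-sites printed above for SESN1 lies before the third of its 3 RefSeq starts, and the gene-level counts do not separate transcripts by their start. Its exons overlap those of AL390208.1 on the opposite strand, which had 19 counts in all against 1347 of SESN1.

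ZMAT3 (chr3:178960121-179072215, minus strand) encodes a zinc finger protein that binds RNA and was the gene of the 9 that moved in opposite directions with the 2 drugs. It had 61.5, 50.4 and 61.8 CPM with DMSO, 74.1, 78.4 and 76.8 with romidepsin, 35.3, 37.6 and 38.9 with afatinib and 48.7, 57.7 and 50.6 with the combination. The romidepsin libraries were the highest and the afatinib libraries the lowest, with no overlap, and the combination overlapped DMSO. The log2 fold change was 0.40 ± 0.080 with romidepsin (adjusted p = 2.71e-05), -0.64 ± 0.085 with afatinib (adjusted p = 1.68e-08) and -0.15 ± 0.081 with the combination (adjusted p = 0.0965, 95% interval -0.31 to 0.02). The combination was called lower than DMSO without DMSO replicate 2 (log2 -0.25, adjusted p = 0.0086) or without combination replicate 2 (log2 -0.23, adjusted p = 0.0182).

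RRM2B and XPC serve DNA synthesis and repair. RRM2B, on chromosome 8, encodes the p53-inducible small subunit of ribonucleotide reductase, which supplies deoxynucleotides outside S phase. It had 50.4, 50.5 and 46.4 CPM with DMSO, 56.6, 63.5 and 59.9 with romidepsin, 62.4, 58.3 and 61.2 with afatinib and 67.2, 84.3 and 68.8 with the combination. All treated libraries lay above all DMSO libraries, the single drugs overlapped, and the combination libraries were the highest. The log2 fold change was 0.29 ± 0.082 with romidepsin (adjusted p = 0.0022), 0.30 ± 0.082 with afatinib (adjusted p = 0.00187) and 0.58 ± 0.080 with the combination (adjusted p = 9.16e-09). The combination exceeded romidepsin (log2 0.30, adjusted p = 0.00138) and afatinib (log2 0.28, adjusted p = 0.00167), and neither call held without combination replicate 2 (log2 0.18, adjusted p = 0.0622, and log2 0.16, adjusted p = 0.0708).

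XPC (chr3:14145147-14178783, minus strand) encodes the sensor that starts global nucleotide excision repair. It had 41.6, 42.8 and 44.7 CPM with DMSO, 50.2, 41.2 and 43.6 with romidepsin, 42.4, 43.9 and 41.5 with afatinib and 45.5, 46.4 and 45.3 with the combination. XPC was called in none of the 7 comparisons by edgeR, and its log2 fold changes from DMSO were 0.07 (95% interval -0.10 to 0.24), -0.01 (-0.18 to 0.15) and 0.09 (-0.08 to 0.25). The combination libraries lay above the DMSO libraries without overlap, and that comparison passed the threshold only when libraries were scaled by their size alone (log2 0.19, adjusted p = 0.0317), among the alternatives tried. XPC shares exon bases with 2 genes on the opposite strand, AC090004.1 (235 counts in all) and AC093495.1 (445 counts), against 6058 counts of XPC.

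FDXR (chr17:74862497-74873031, minus strand) encodes ferredoxin reductase, a mitochondrial enzyme that passes electrons for steroid and iron-sulfur cluster synthesis. It had 52.5, 55.0 and 50.9 CPM with DMSO, 40.8, 42.5 and 37.0 with romidepsin, 37.7, 39.2 and 30.8 with afatinib and 40.3, 33.3 and 40.9 with the combination. All 9 treated libraries lay below all DMSO libraries, and the 3 treated groups overlapped each other. FDXR fell by a log2 fold change of -0.40 ± 0.091 with romidepsin (adjusted p = 0.000157), -0.56 ± 0.092 with afatinib (adjusted p = 1.49e-06) and -0.47 ± 0.090 with the combination (adjusted p = 8.93e-06). The treated groups did not differ from each other past the threshold, with log2 differences of -0.07 between the combination and romidepsin (95% interval -0.26 to 0.12) and 0.09 between the combination and afatinib (-0.10 to 0.28).

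**Figure D2:**
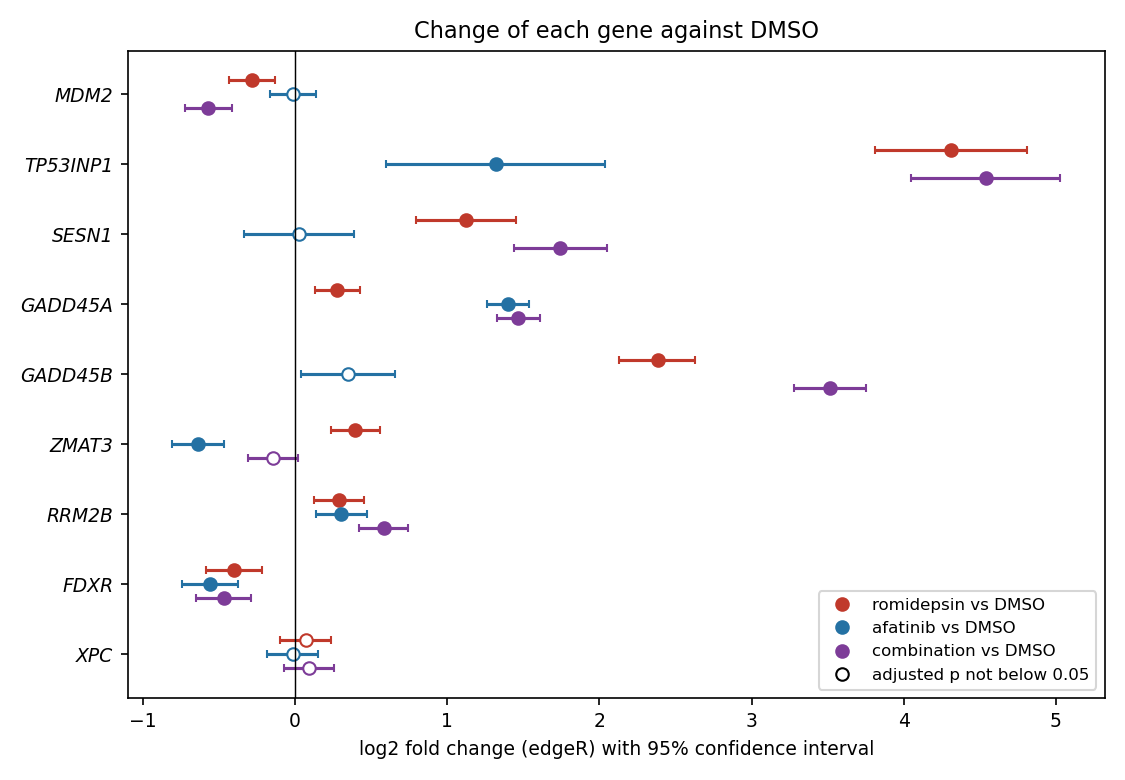
Log2 fold change from DMSO (horizontal axis) of the 9 genes (rows) with romidepsin (red), afatinib (blue) and the combination (purple); bars are 95% confidence intervals from edgeR over 12 libraries, and open points did not pass adjusted p below 0.05. TP53INP1, GADD45B and SESN1 reach 4.54, 3.52 and 1.74 with the combination, FDXR lies below 0 with all treatments, and ZMAT3 lies on opposite sides of 0 with romidepsin and afatinib.

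Between the groups that received drugs, the combination was higher than romidepsin in 4 genes (SESN1, GADD45A, GADD45B and RRM2B) and lower in 2 (MDM2 and ZMAT3), where 25.1% of all tested genes were called higher, 29.2% lower and 54.3% in either direction. The combination was higher than afatinib in 5 genes (TP53INP1, SESN1, GADD45B, ZMAT3 and RRM2B) and lower in MDM2, where 33.4% of all genes were called higher, 35.8% lower and 69.2% in either direction. Romidepsin was higher than afatinib in TP53INP1, SESN1, GADD45B and ZMAT3 and lower in MDM2 and GADD45A, where 32.2% of all genes were called higher, 32.4% lower and 64.6% in either direction. The largest of these differences were the excesses of the combination over afatinib, 9.31-fold in TP53INP1 (adjusted p = 2.02e-19) and 9.0-fold in GADD45B (adjusted p = 2.59e-29).

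The interaction asks whether the change with both drugs differs from the sum of the romidepsin and afatinib changes on the log2 scale. It was called for 5 of the 9 genes (3 higher, 2 lower), where 11.7% of all tested genes were called higher, 18.5% lower and 30.2% in either direction. GADD45B rose by 3.52 with the combination against a sum of 2.73, an excess of 0.79 ± 0.18 (adjusted p = 0.000586). FDXR fell by 0.47 with the combination against a sum of -0.96, a difference of 0.49 ± 0.13 (adjusted p = 0.00285), so its loss was smaller than the sum. These 2 calls held when each of the 12 libraries was left out in turn. SESN1 exceeded its sum by 0.60 ± 0.23 (adjusted p = 0.0393), a call held in 3 of these 12 fits. It was lost (adjusted p from 0.0542 to 0.0996) without DMSO replicate 2 or 3, romidepsin replicate 1 or 3, afatinib replicate 2 or 3 or any combination library. TP53INP1 fell short of its sum by a log2 value of -1.09 ± 0.39 (adjusted p = 0.0286), held in 9 of 12, and this value rests on the 5 to 9 counts of each DMSO library. It was lost without DMSO replicate 1 (adjusted p = 0.14), afatinib replicate 3 (0.0896) or romidepsin replicate 2 (0.051). MDM2 was below its sum by a log2 value of -0.27 ± 0.11 (adjusted p = 0.0491), held in 4 of 12. It was lost (adjusted p from 0.0533 to 0.171) without DMSO replicate 1 or 2, romidepsin replicate 2 or 3, afatinib replicate 1 or 3 or combination replicate 1 or 3. DESeq2 did not call SESN1 (adjusted p = 0.0596), TP53INP1 (0.059) or MDM2 (0.129). Without the 4 libraries with KRT5 reads, which leaves DMSO with 1 library, all 5 called interactions were smaller in size and their calls were lost. GADD45B was then at 0.50 ± 0.26 (SE) and FDXR at 0.28 ± 0.17. SESN1 was at 0.51 ± 0.31, TP53INP1 at -0.71 ± 0.56 and MDM2 at -0.13 ± 0.14, from 8 libraries. The share of all genes called in that fit is not given here, so this loss cannot be set against all genes. In the main fit GADD45A, ZMAT3, RRM2B and XPC were not called, with 95% intervals of the difference of -0.41 to -0.01, -0.14 to 0.33, -0.24 to 0.22 and -0.20 to 0.27.

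**Figure D3:**
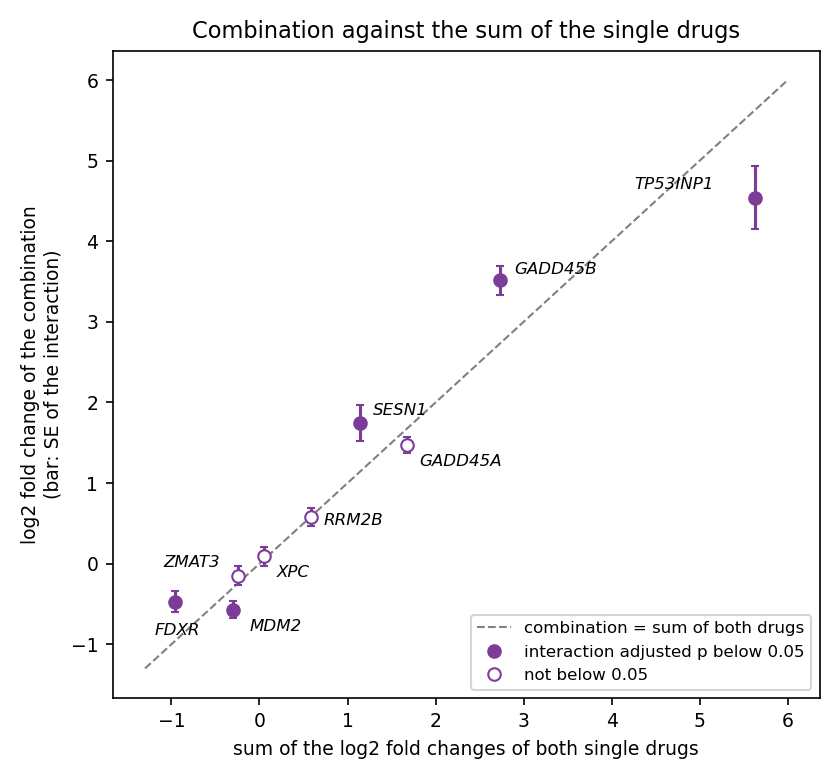
Log2 fold change of the combination from DMSO (vertical axis) against the sum of the log2 fold changes of romidepsin and afatinib (horizontal axis) for the 9 genes; the bar is the SE of the interaction, filled points passed adjusted p below 0.05 and the dashed line marks equality. GADD45B, SESN1 and FDXR lie above the line, TP53INP1 and MDM2 below it, and RRM2B and XPC lie close to it.

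The relatives of these genes, from a list fixed with them, show whether a family moved together. Of 14 paralogs and protein partners 12 were tested, and 6 rose and 4 fell with romidepsin, where 31.1% and 31.5% of all tested genes did. With afatinib 3 rose and 6 fell (22.0% and 23.3% of all genes), and with the combination 7 rose and 5 fell (37.2% and 37.1% of all genes). The medians were 0.24, -0.12 and 0.34. With scaling by library size alone the afatinib counts were 3 and 4, beside 4606 higher and 2803 lower of all 16208 genes. In the GADD45 family, GADD45G went from 50.5 ± 6.48 CPM with DMSO to 92.9 ± 5.89 with romidepsin, 78.0 ± 1.51 with afatinib and 80.0 ± 3.33 with the combination, so it rose with every treatment (log2 0.89, 0.63 and 0.67). GADD45G thus rose with afatinib (adjusted p = 2.44e-09), where GADD45B was not called.

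The sestrins also differed. SESN2 rose from 2.7 ± 0.92 CPM with DMSO to 5.81 ± 0.71 with romidepsin, 32.8 ± 2.61 with afatinib and 35.3 ± 5.24 with the combination (log2 1.13, 3.62 and 3.73, adjusted p from 1.17e-25 to 8.82e-06). SESN3 rose with romidepsin (log2 0.43, adjusted p = 8.42e-08) and the combination (log2 0.49, adjusted p = 2.18e-09) and fell with afatinib (log2 -0.36, adjusted p = 7.41e-06). With afatinib, SESN2 therefore rose, SESN3 fell and SESN1 was not called. Per kilobase, SESN3 had the highest DMSO level of the 3, 15.8 ± 1.28 CPM per kilobase, against 1.00 ± 0.079 for SESN1 and 0.78 ± 0.26 for SESN2.

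The subunits of ribonucleotide reductase had different values. RRM2, the small subunit used in S phase, rose with romidepsin (log2 0.88, adjusted p = 1.55e-19) and with the combination (log2 0.20, adjusted p = 0.00119). With afatinib RRM2 was called lower (log2 -0.18, adjusted p = 0.00497), a call lost with scaling by library size alone (adjusted p = 0.227), without DMSO replicate 1 (0.0615), without afatinib replicate 1 (0.0679) or 3 (0.0642) and without the 4 libraries with KRT5 reads (0.57). RRM1, the large subunit that pairs with either, fell with romidepsin, afatinib and the combination (log2 -1.05, -0.52 and -2.26, adjusted p from 9.55e-26 to 2.02e-06). MDM4, the partner of MDM2 in restraining p53, fell with romidepsin (log2 -0.59, adjusted p = 3.44e-07) and the combination (log2 -1.03, adjusted p = 1.09e-13) and was not called with afatinib (log2 -0.06, adjusted p = 0.624), the 3 calls that MDM2 had too.

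**Figure D4:**
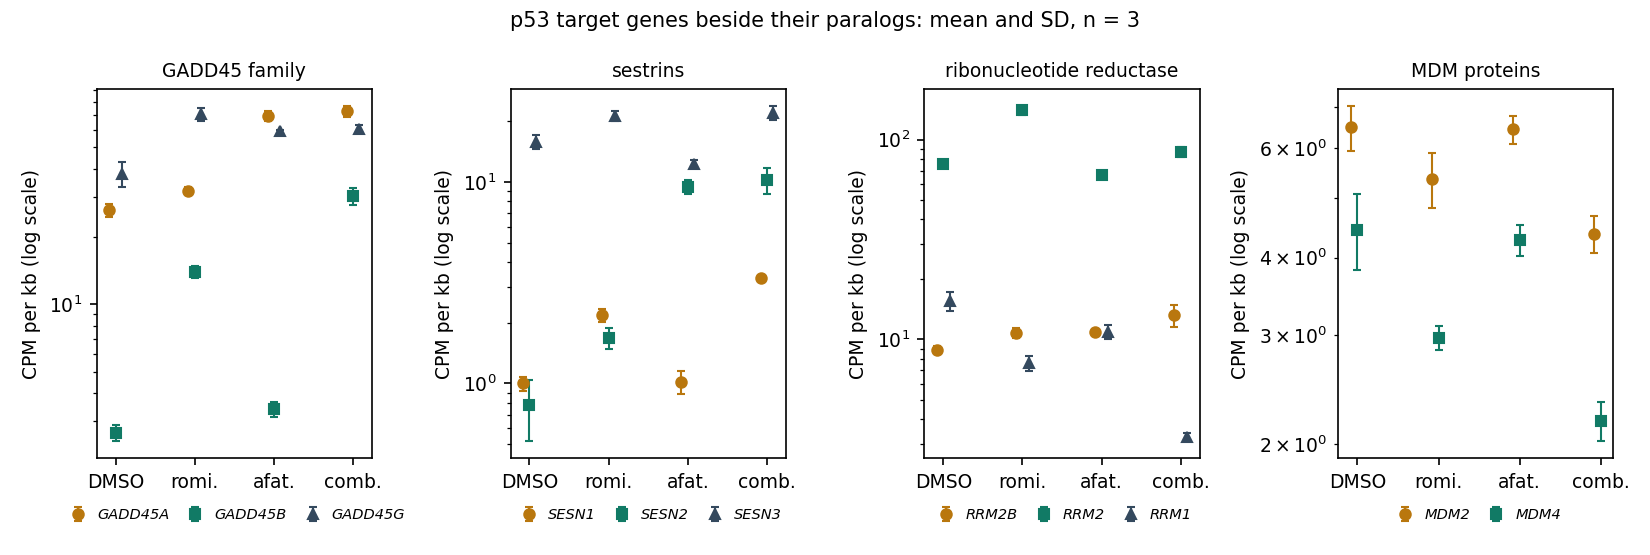
Level per kilobase of gene length (CPM per kilobase, vertical axes, log scale) of GADD45, sestrin, ribonucleotide reductase and MDM genes in the 4 groups; points are means and bars the SD of 3 libraries. GADD45B and SESN1 rise with romidepsin and the combination, SESN2 rises most with afatinib and the combination, RRM1 falls while RRM2B rises, and MDM2 and MDM4 are lowest with the combination.

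Of 38 other genes listed as p53 targets 34 were tested. SESN2, TP53INP2 and DDB2 are among them and were also counted with the paralogs and partners. With romidepsin 11 were called higher and 10 lower, near the 31.1% and 31.5% of all tested genes. With afatinib 15 were called higher and 6 lower, beside 22.0% and 23.3% of all genes. With scaling by library size alone these counts were 16 and 3. The counts of all 16208 genes moved too, from 3571 higher and 3780 lower to 4606 and 2803. With the combination 15 were called higher and 11 lower, beside 37.2% and 37.1% of all genes. The medians were 0.07, 0.07 and 0.14. The 10 tested genes of cell cycle arrest and feedback were called 5 higher and 1 lower with romidepsin, 5 and 1 with afatinib and 7 and 1 with the combination, where 31.1%, 22.0% and 37.2% of all genes were called higher and 31.5%, 23.3% and 37.1% lower. Their medians were 0.24, 0.12 and 0.79. CDKN1A, the inhibitor p21, rose by log2 2.11, 0.44 and 1.87 (adjusted p from 3.55e-34 to 2.56e-09). BTG2, an antiproliferative protein, rose with romidepsin (log2 1.17, adjusted p = 9.08e-17) and the combination (log2 1.26, adjusted p = 1.76e-18), and TP53INP2, the paralog of TP53INP1, rose with afatinib (log2 0.42, adjusted p = 4.46e-05) and the combination (log2 0.97, adjusted p = 3.7e-15).

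The 12 tested genes of cell death were called 3 higher and 5 lower with romidepsin, 6 and 3 with afatinib and 4 and 6 with the combination. Of all genes 31.1%, 22.0% and 37.2% were called higher and 31.5%, 23.3% and 37.1% lower. The medians were -0.02, 0.13 and -0.29. FAS, the death receptor, went from 137 ± 5.61 CPM with DMSO to 18.8 ± 2.90 with romidepsin, 209 ± 3.81 with afatinib and 15.9 ± 3.04 with the combination. It fell with romidepsin (log2 -2.88, adjusted p = 5.51e-30) and the combination (log2 -3.11, adjusted p = 1.04e-31) and rose with afatinib (log2 0.61, adjusted p = 1.38e-09). BAX, which opens the outer mitochondrial membrane, fell with romidepsin (log2 -1.18, adjusted p = 3.92e-21) and the combination (log2 -1.43, adjusted p = 9.79e-25). TP53I3, a quinone oxidoreductase gene, fell with romidepsin (log2 -1.16, adjusted p = 6.02e-09), with the combination (log2 -1.57, adjusted p = 1.53e-12) and with afatinib (log2 -0.58, adjusted p = 0.000848), the last call lost without the 4 libraries with KRT5 reads (adjusted p = 0.166). PMAIP1, a BH3-only protein also called NOXA, rose with romidepsin (log2 0.87, adjusted p = 3.68e-19), afatinib (log2 0.40, adjusted p = 3.18e-08) and the combination (log2 1.46, adjusted p = 2.74e-28). DRAM1, a lysosomal protein of autophagy, rose with afatinib (log2 0.48, adjusted p = 0.00268).

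The 12 tested genes of DNA repair and other roles were called 3 higher and 4 lower with romidepsin, 4 and 2 with afatinib and 4 and 4 with the combination. These stand beside 31.1% higher and 31.5% lower of all genes with romidepsin, 22.0% and 23.3% with afatinib and 37.2% and 37.1% with the combination. The medians were -0.0046, 0.07 and 0.10. With scaling by library size alone the afatinib counts were 5 and 0, beside 4606 higher and 2803 lower of all 16208 genes. DDB2, the damage sensor that works ahead of XPC, went from 68.6 ± 6.13 CPM with DMSO to 31.7 ± 1.24 with romidepsin and 25.7 ± 2.47 with the combination (log2 -1.11, adjusted p = 7.78e-16, and log2 -1.42, adjusted p = 7.63e-20). Its lower value with afatinib (log2 -0.22, adjusted p = 0.0246) lost the call with scaling by library size alone (0.24), without DMSO replicate 3 (0.165) and without afatinib replicate 1 (0.172) or 2 (0.0788). POLH, a polymerase that copies past ultraviolet lesions, rose with the combination (log2 1.27, adjusted p = 1.94e-14), with values of 0.18 and -0.01 that were not called with romidepsin and afatinib. RAP2B, a small GTPase, rose with romidepsin (log2 1.26, adjusted p = 1.5e-23) and the combination (log2 1.17, adjusted p = 1.06e-22), and TRIM22 fell with romidepsin (log2 -0.98, adjusted p = 1.41e-05) and the combination (log2 -1.42, adjusted p = 8.04e-09). With afatinib the calls of ANKRA2 (log2 0.34, adjusted p = 0.0447), NINJ1 (0.25, 0.0297) and ASCC3 (-0.28, 0.00833) were each lost under at least 2 of the alternatives tried, afatinib replicate 2 left out among them (adjusted p = 0.116, 0.0605 and 0.0586). Those of ANKRA2 and NINJ1 were also lost without the 4 libraries with KRT5 reads (log2 0.56 and 0.24).

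Of 16 regulators of p53 15 were tested, and 2 were called higher and 6 lower with romidepsin, 4 and 1 with afatinib and 1 and 9 with the combination. Of all tested genes 31.1% were called higher and 31.5% lower with romidepsin, 22.0% and 23.3% with afatinib and 37.2% and 37.1% with the combination. The medians were 0.03, 0.02 and -0.32. MDM4 was counted both here and with the paralogs and partners. HIPK2, a kinase that phosphorylates p53, fell with romidepsin (log2 -1.58, adjusted p = 1.09e-27) and the combination (log2 -2.53, adjusted p = 1.53e-35), as did the checkpoint kinase CHEK1 (log2 -0.88, adjusted p = 2.78e-12, and log2 -1.60, adjusted p = 6.11e-21). USP7, a deubiquitinase of MDM2 and p53, fell with romidepsin (log2 -0.52, adjusted p = 1.67e-08) and the combination (log2 -1.13, adjusted p = 5.78e-19). CREBBP, an acetyltransferase, fell with romidepsin (log2 -0.68, adjusted p = 8.91e-13) and the combination (log2 -0.32, adjusted p = 2.21e-05) and rose with afatinib (log2 0.42, adjusted p = 2.54e-07). TP53BP1, a damage-response scaffold, fell with afatinib (log2 -0.54, adjusted p = 4.55e-09) and the combination (log2 -0.72, adjusted p = 3.69e-13). The deacetylase gene SIRT1 rose with romidepsin, afatinib and the combination (log2 0.39, 0.45 and 1.09, adjusted p from 5.01e-17 to 8.12e-05).

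**Figure D5:**
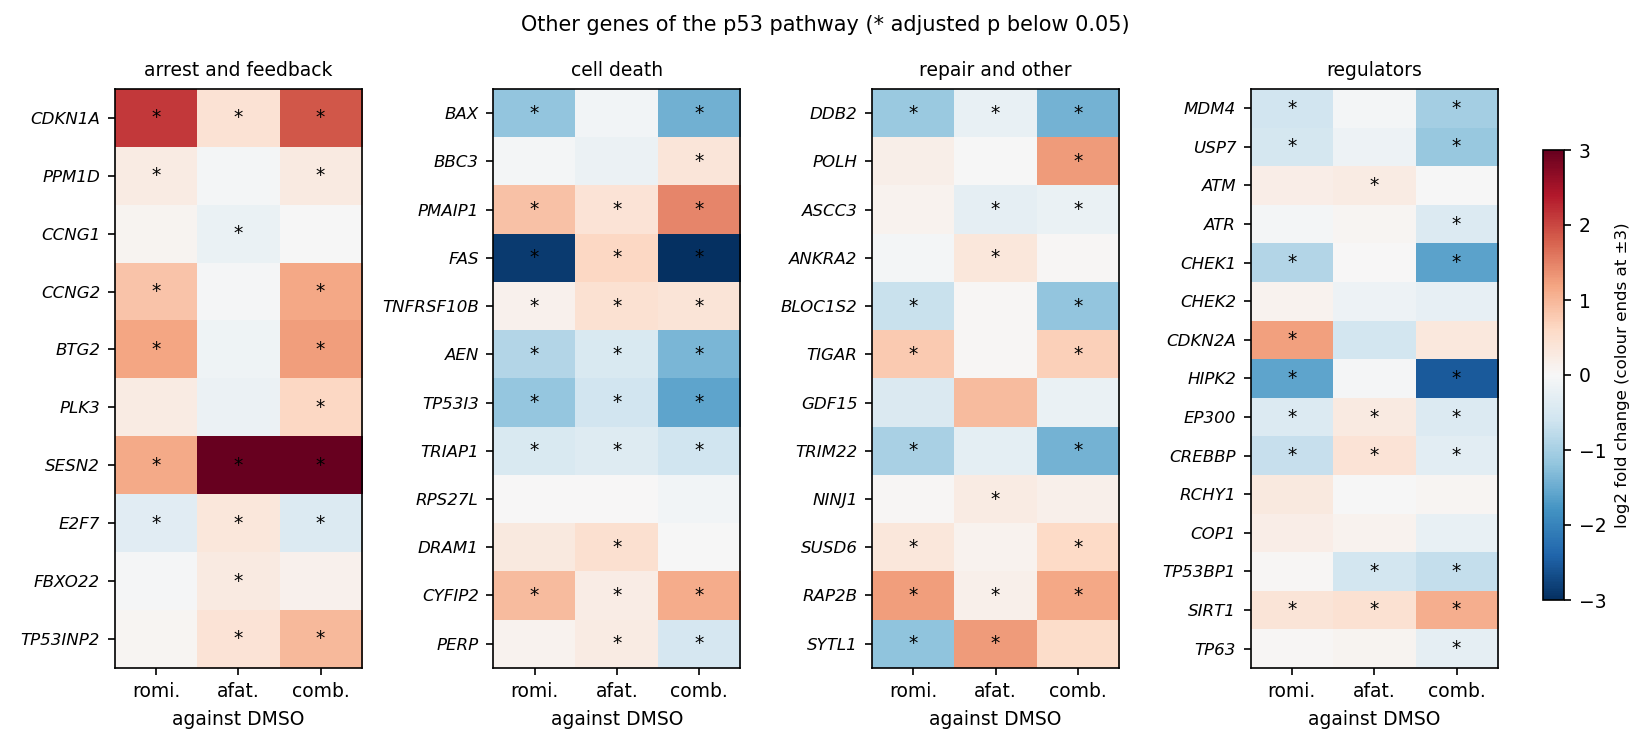
Log2 fold change from DMSO (colour, ending at -3 and 3) of the tested p53 targets other than the 9 genes, grouped by role, and of the regulators, with romidepsin, afatinib and the combination; an asterisk marks adjusted p below 0.05. CDKN1A and SESN2 are red in all 3 columns, FAS is blue with romidepsin and the combination and red with afatinib, and 9 of 15 regulators are called lower with the combination, as are 37.1% of all tested genes.

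The genes whose log2 CPM followed each of the 9 most closely over the 12 libraries were sought among 10271 genes with a mean of at least 5 CPM, taking 2 per gene. These coefficients are descriptions over libraries that share 4 treatments. GADD45B was most like ARID5A and SNN (Pearson r 0.999 and 0.998), TP53INP1 like NR3C2 and STX3 (0.996 and 0.995), and SESN1 like ZFAND2B and GCLC (0.995 and 0.993). GADD45A was most like PPP1R15A, a phosphatase subunit of the stress response, and ZNF862 (0.995 and 0.989). ZMAT3 was most like MPP6 and UBXN7 (0.992 and 0.987), MDM2 like PAPOLA and GMEB1 (0.979 and 0.976) and RRM2B like RAB6A and LAMP2 (0.965 and 0.964). FDXR was most like DDX41 and HLA-B (0.941 and 0.916), and XPC had the lowest values, with the pseudogenes HERC2P2 and CYP4F29P (0.785 and 0.77). Among the 9 genes themselves, SESN1 and GADD45B had the highest coefficient (0.990) and MDM2 and GADD45B the lowest (-0.920).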

How the data were processed

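The authors deposited unscaled counts of read pairs for each gene symbol, per the file headers. They were counted with featureCounts 2.0.0 on GENCODE 31, ignoring strand and leaving out multi-mapping reads, as the file headers show. STAR 2.7.9a, GRCh38.p12 and DESeq2 1.38.1 are named in the submitters' processing notes. A second deposited table of normalized values was not used, since its values followed the text order of the counts and not their size. No library duplicated another.

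Counts were fitted here with edgeR 4.0.16 in R 4.3.3 (filterByExpr, TMM scaling, robust quasi-likelihood fit of 4 group means over all 12 libraries, 2-sided tests), with Benjamini-Hochberg adjustment over 16208 genes and a threshold of 0.05. The biological coefficient of variation was 6.13%. CPM values use TMM-scaled library sizes, and ± after a CPM value is the SD and after a log2 fold change the SE. The test was tried on simulated data in which few genes changed, in a single group at a time. So large a share of changed genes as in these data, and the scaling under it, was not simulated. DESeq2 1.42.0 served as an alternative. Floors of 3 counts cover counting error only.

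Same-numbered libraries did not deviate together: none of 18 pairs correlated above 0.1, so replicate numbers were not used as pairs. The 9 genes, the gene lists and the tests were chosen with earlier results of these data known. Named genes were the 9, CDKN1A, MDM4, GADD45G, SESN2, SESN3, RRM2 and DDB2, and up to 3 called genes with the largest change per list and comparison with DMSO, at a mean of at least 5 CPM. 1 gene of the regulator list and 1 of the partner list are not reported here. Sequences come from RefSeq (GRCh38.p14), read by symbol; gene coordinates are those of the count table.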

Additional observations from a re-analysis of the deposited data

Results flagged for a closer look

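In 5 of the 9 genes the change with afatinib differed between cells with and without romidepsin by the test of that difference (edgeR, adjusted p below 0.05), as it did in 30.2% of all tested genes. With any one library left out, 2 to 4 of the 9 were called, beside 4285 to 4796 genes in all. The latter are counts and not shares, as the number of tested genes changed between these fits (16834 without DMSO replicate 2). The difference was 0.79 on the log2 scale for GADD45B and 0.49 for FDXR. It was 0.60 for SESN1, -1.09 for TP53INP1 and -0.27 for MDM2. For GADD45B the afatinib change was 0.35 from DMSO and 1.13 on top of romidepsin, and for FDXR it was -0.56 and -0.07. All 5 keep their direction without the 4 libraries with KRT5 reads, at smaller values and without their calls. That fit has 1 DMSO library, and its share of all genes called is not given here.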

How the results depend on the processing

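The 63 results of the 9 genes were recomputed under every alternative, 927 values in all: 852 kept direction and side of the threshold, 36 lost the call, 5 gained it and 34 changed sign. No result that was called changed sign. Of the lost calls 33 were interactions and 3 were pairwise, given with the genes. Without the 4 libraries with KRT5 reads, which leaves DMSO with 1 library assumed to vary like the other groups, 4162 genes in all were called between afatinib and DMSO in place of 7351. In the main fit the interaction was called for 5 of the 9 genes, beside 4898 genes in all. It was called for 2 of the 9 with no filter on low counts and for 2 with DESeq2. The shares of all genes under those settings are not given here. Scaling by library size alone moved the median of all genes by 0.10 with afatinib and the split of its calls from 3571 higher and 3780 lower to 4606 and 2803. The replicate block changed 1 call, the interaction of MDM2 (-0.27, adjusted p = 0.0596); 4 of 12 libraries correlated best with their own number.

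Values that changed sign were all near 0 and not called (adjusted p of at least 0.361). With library size alone MDM2 was 0.087 and XPC 0.085 between afatinib and DMSO, FDXR 0.019 between combination and romidepsin and XPC -0.00097 between romidepsin and afatinib. With no filter SESN1 was -0.0042 between afatinib and DMSO and RRM2B 0.033 in the interaction, where RRM2B was 0.028 with DESeq2 size factors and 0.022 with DESeq2. FDXR was -0.016 between combination and afatinib without the libraries with KRT5 reads. With each library left out in turn, XPC ranged from -0.018 to 0.12 between romidepsin and DMSO. Between afatinib and DMSO, MDM2 ranged from -0.080 to 0.031, SESN1 from -0.064 to 0.11 and XPC from -0.036 to 0.017. Between combination and romidepsin, FDXR ranged from -0.14 to 0.016 and XPC from -0.042 to 0.099. Between romidepsin and afatinib, RRM2B ranged from -0.055 to 0.025 and XPC from -0.00099 to 0.14. In the interaction, RRM2B ranged from -0.13 to 0.047, XPC from -0.025 to 0.12 and the number of the 9 genes called from 2 to 4. Beside these, 4285 to 4796 genes in all were called, in fits whose number of tested genes differed. Of 112 calls against DMSO in the other lists, recomputed as an addition made after seeing the data, 84 of 1566 values lost the call and 0 changed sign. For all values that moved, the cause was not tested. Depth limits TP53INP1 most, at 5 to 9 counts in each DMSO library.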
